A study of Mus musculus with 6 samples.

Results

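Shox2, Tcf7l2, Lef1, Rora, Gbx2, Ramp3, Tnnt1 and Plekhg1 are genes used as markers of the thalamus, and they are described here in RNA from the hippocampus. They were chosen by name, as the 8 rows of the deposited table of normalized counts that carry these symbols, out of 24935 genes in all. Earlier results from the same 6 libraries were known when they were chosen, so their values and their differences between groups are given as a description, with no test.

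The libraries came from the left hippocampus of C57BL/6 mice harvested at P14 (postnatal day 14), 1 library per mouse. In the air group 3 mice were kept in room air, and in the hyperoxia group 3 mice were kept in 85% oxygen from P2 to P14 in a normobaric chamber, in both groups as pups together with their dams. The labels give no sex, litter or genetic change for a mouse. A deposited column names its group and carries a number of its own, which does not tell the animal, and libraries are named here by those numbers. Every direction below rests on the group that a column names. It is uncertain, because the study's sources do not all point the same way and no gene was deleted or added that could check it, and with the groups exchanged each rise would be a fall. Between 30384052 (hyperoxia library 2) and 38746972 (air library 1) reads on genes stood behind a library. The dissected block held all cell types together, so fewer cells of a type and less RNA per cell cannot be told apart in any value below. Nor can the amount of neighbouring tissue taken with a block be told apart from a change within the hippocampus. A gene said below to rise or fall did so in the RNA of the block.

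The thalamus lies directly beneath the hippocampus, with the choroid plexus and the fimbria between them, and a hippocampus lifted from the brain can carry some of the tissue around it. Transcription factors such as Gbx2 and Tcf7l2 shape thalamic relay neurons, which send glutamatergic axons to the cortex, and Lef1, Shox2 and Rora are also active in them. Several of these genes are also active elsewhere in the brain: Tcf7l2 in maturing oligodendrocytes, Lef1 in brain vessels and Rora in astrocytes and interneurons.

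Promoter sequences from RefSeq (GRCm38.p6) were found for 8 of the 8 genes, with 12 start sites among them, and the 250 bases before each start were searched on both strands. The letters searched were the core of the site bound by the TCF/LEF factors that Tcf7l2 and Lef1 encode (CTTTGA, or TCAAAG on the other strand), the site of the ROR receptors (TAGGTCA) and the homeodomain core (TAATTA). Of 32851 mouse promoters of the same length, 13.8% held the first, 2.23% the second and 4.84% the third. Only the first occurred, in 1 promoter of Shox2 and in 1 of the 4 promoters of Lef1, and they are shown because factors of this kind are themselves among the 8 genes. The Shox2 sequence is chr3:66981772-66982021 on the minus strand, and the Lef1 sequence, chr3:131156044-131156293 on the plus strand, lies before a start inside the gene. Both read 5′ to 3′ toward the start, with the TCF/LEF core in capitals.
Shox2: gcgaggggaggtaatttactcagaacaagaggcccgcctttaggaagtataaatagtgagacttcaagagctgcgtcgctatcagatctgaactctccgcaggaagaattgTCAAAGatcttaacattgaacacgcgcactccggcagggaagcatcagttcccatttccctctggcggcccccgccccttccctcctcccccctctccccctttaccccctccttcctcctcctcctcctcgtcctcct
Lef1: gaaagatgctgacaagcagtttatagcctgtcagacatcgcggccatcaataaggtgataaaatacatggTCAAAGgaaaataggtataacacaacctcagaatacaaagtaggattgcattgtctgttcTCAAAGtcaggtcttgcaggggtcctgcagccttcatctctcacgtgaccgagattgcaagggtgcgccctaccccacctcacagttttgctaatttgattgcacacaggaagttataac
The core began 139 bases before the start in Shox2, and 180 and 120 bases before it in Lef1. A match of letters is a description and not a binding site.

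The 8 genes did not share 1 profile over the libraries. In 3 of them, Shox2, Rora and Ramp3, every hyperoxia library lay above every air library, and in none did every hyperoxia library lie below. Over the 17778 genes with a mean normalized count of at least 10, which were the genes tested, the groups parted in this way upward in 22.3% and downward in 23.8%, so both directions were common, and the rule for choosing the members had used these same libraries. In the other 5 the groups overlapped. The mean was higher in hyperoxia for 7 genes and lower for 1, Tnnt1. Of the 8 genes, 5 (Shox2, Tcf7l2, Lef1, Gbx2 and Ramp3) had their highest value in hyperoxia library 2, against 19.6% of the genes tested. These shares are not like for like, because Gbx2 was too low to be tested and Shox2 was tested only through its hyperoxia values. The highest value of Rora was in hyperoxia library 1, that of Plekhg1 in hyperoxia library 3 and that of Tnnt1 in air library 1.

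**Figure D1:**
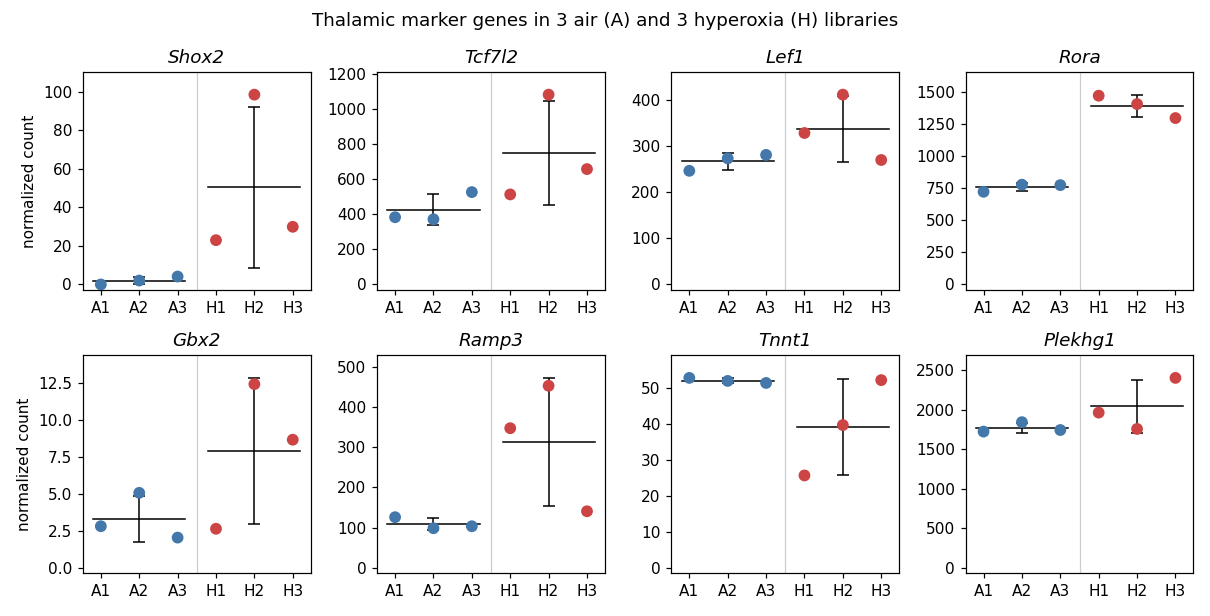
Normalized counts (vertical axes, which include 0) of the 8 thalamic marker genes in air libraries 1 to 3 (A1 to A3, blue) and hyperoxia libraries 1 to 3 (H1 to H3, red), with the group mean as a horizontal line and the SD as a bar (n = 3). Shox2, Rora and Ramp3 do not overlap between groups, and library H2 is highest in 5 of the 8 panels.

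Among the homeobox factors, Shox2 (ENSMUSG00000027833.16, chr3:66971727-66981771 on the minus strand in GENCODE M21, GRCm38) stood furthest apart. Its normalized count was 0 in air library 1, 2.04 in air library 2 and 4.11 in air library 3, and 23.0, 98.5 and 29.9 in hyperoxia libraries 1, 2 and 3. The air libraries were at or close to 0, the hyperoxia libraries were all above them, and library 2 was 3.72 times the mean of the other two hyperoxia libraries. The air mean was 2.05 ± 2.05 (SD, n = 3) and the hyperoxia mean 50.5 ± 41.7 (SD, n = 3).

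Behind these values were 0, 2 and 4 reads in air and 26, 87 and 31 reads in hyperoxia. The ratio of the summed reads, 144 against 6, scaled to the libraries, was 23.7 (exact 95% interval 10.6 to 65.8, for counting error only). On the log2 scale of the normalized count plus 1, used for every difference below, hyperoxia minus air was 4.07 (standard error 0.94) for Shox2, and 3.45 without hyperoxia library 2. The scale understates changes of low values, and with a pseudocount of 5 the difference was 2.77. Shox2 passed the filter on the mean only through the hyperoxia libraries. Its exons share 153 bases with those of Rsrc1 on the other strand, a gene with a mean count of 1053, and the sources used here do not say whether reads were counted by strand.

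Gbx2 (ENSMUSG00000034486.8, chr1:89927956-89931179 on the minus strand), the homeobox factor that marks early thalamic neurons, was measured with 3, 5 and 2 reads in air and 3, 11 and 9 reads in hyperoxia. Its normalized counts were 2.83, 5.09 and 2.05 in air and 2.65, 12.5 and 8.69 in hyperoxia (libraries 1 to 3 in order, here and below). Hyperoxia library 1 lay among the air libraries, and libraries 2 and 3 above them. The ratio of the summed reads, 23 against 10, was 2.28 (exact 95% interval 1.04 to 5.36, for counting error only). As for Shox2, the interval pools the reads of the mice, leaves out the spread between them and is no test of the groups. With a mean of 5.63 over the 6 libraries, under the minimum of 10, it was the 1 gene of the 8 that was left out of the genes tested, while Shox2, at a mean of 26.3, was the lowest that passed. The exons of Gbx2 share 946 bases with D130058E05Rik on the other strand.

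Tcf7l2 and Lef1 encode partner factors of β-catenin, the transcriptional end of the canonical Wnt pathway. Tcf7l2 (ENSMUSG00000024985.18, chr19:55741820-55933654 on the plus strand) had normalized counts of 384, 372 and 528 in air and of 514, 1085 and 659 in hyperoxia. The groups overlapped, since air library 3 exceeded hyperoxia library 1, and hyperoxia library 2 was 1.85 times the mean of the other two. The air mean was 428 ± 86.4 (SD, n = 3) and the hyperoxia mean 753 ± 296 (SD, n = 3), a difference of 0.76 (standard error 0.35), which was 0.46 without hyperoxia library 2.

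Lef1 (ENSMUSG00000027985.14, chr3:131110471-131224356 on the plus strand) had 247, 274 and 281 in air and 329, 412 and 270.3 in hyperoxia. The groups overlapped here as well, with hyperoxia library 3 between the air libraries and library 2 at the top. The air mean was 267 ± 18.2 (SD, n = 3) and the hyperoxia mean 337 ± 71.3 (SD, n = 3), and the difference of 0.31 (standard error 0.18) was 0.16 without hyperoxia library 2. Lef1 shares 1208 exonic bases with Gm43352 on the other strand, a transcript with a mean count of 2.99.

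Rora (ENSMUSG00000032238.17, chr9:68653786-69388246 on the plus strand), a nuclear receptor that acts in thalamic relay neurons, cerebellar Purkinje cells and astrocytes, parted the groups with the smallest standard error of the 8. It had 723, 778 and 775 in air and 1473, 1407 and 1298 in hyperoxia. No hyperoxia library stood out, with library 2 at 1.02 times the mean of the other two. The air mean was 759 ± 30.9 (SD, n = 3) and the hyperoxia mean 1393 ± 88.1 (SD, n = 3), a ratio of 1.84 and a log2 difference of 0.87 (standard error 0.06), and it stayed at 0.87 without hyperoxia library 2. After a correction for transcript length and GC content the difference was 0.49.

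Ramp3 (ENSMUSG00000041046.7, chr11:6658521-6677475 on the plus strand) encodes a single-pass membrane protein that joins the calcitonin receptor-like receptor and sets which peptide it binds. Its normalized counts were 126, 98.7 and 104 in air and 347, 453 and 141 in hyperoxia. The hyperoxia libraries lay above the air libraries but far from each other, and library 3, at 141, was nearer to air library 1, at 126, than to the other hyperoxia libraries. The air mean was 109.5 ± 14.6 (SD, n = 3) and the hyperoxia mean 314 ± 159 (SD, n = 3). The difference was 1.36 (standard error 0.52), and 1.02 without hyperoxia library 2.

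Tnnt1 (ENSMUSG00000064179.13, chr7:4504570-4516382 on the minus strand) encodes the slow skeletal muscle form of troponin T and is transcribed in thalamic neurons. It had 52.7, 51.9 and 51.3 in air and 25.6, 39.6 and 52.1 in hyperoxia, so that air was nearly constant and hyperoxia spread downward from it. Behind these values were 56, 51 and 50 reads in air and 29, 35 and 54 in hyperoxia. The part of counting error in the 2 spreads was not tested. Hyperoxia library 3 lay among the air libraries. Air had a mean of 52.0 ± 0.707 (SD, n = 3) and hyperoxia one of 39.1 ± 13.3 (SD, n = 3), a difference of −0.46 (standard error 0.29). The difference was −0.19 without hyperoxia library 1 and −0.69 without hyperoxia library 3.

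Plekhg1 (ENSMUSG00000040624.17, chr10:3740364-3967303 on the plus strand), which encodes a guanine nucleotide exchange factor, had 1722, 1841 and 1741 in air and 1962, 1755 and 2400.5 in hyperoxia. Hyperoxia library 2, in which 5 of the other genes were highest, held the lowest hyperoxia value of Plekhg1, between the air libraries. Air had a mean of 1768 ± 64.0 (SD, n = 3) and hyperoxia one of 2039 ± 329.7 (SD, n = 3), a difference of 0.19 (standard error 0.14). The difference was 0.07 without hyperoxia library 3 and 0.30 without hyperoxia library 2. After the correction for transcript length and GC content the difference was −0.026, so its direction depended on that correction.

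Levels of different genes can be compared only per length of transcript. Per kilobase of exons, the mean normalized count in air was 202 ± 7.32 for Plekhg1, 79.4 ± 10.6 for Ramp3, 58.1 ± 2.37 for Rora, 48.8 ± 9.85 for Tcf7l2, 30.4 ± 2.07 for Lef1, 23.6 ± 0.321 for Tnnt1, 1.53 ± 0.724 for Gbx2 and 0.618 ± 0.620 for Shox2 (SD, n = 3). Rora and Tcf7l2 overlapped over the air libraries, as did Gbx2 and Shox2, and the other neighbours in this order did not overlap. The 8 genes thus covered a wide range in air, with 6 transcribed in every air library at a mean of 23.6 per kilobase or more and the homeobox factors Gbx2 and Shox2 near the limit of detection. In hyperoxia, Ramp3 had 227 ± 115 per kilobase, close to the 233 ± 37.7 of Plekhg1, and Shox2 had 15.2 ± 12.6 against 3.64 ± 2.27 for Gbx2 (SD, n = 3).

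Over the 7 members that were tested, the median difference between hyperoxia and air was 0.76, in a range from −0.46 to 4.07, beside a median of −0.01 over all genes tested. These medians describe the members that passed the filter and support nothing, since Gbx2 was left out and Shox2 passed only through its hyperoxia values. Without Shox2 the median of the other 6 was 0.54, and with no filter the median of all 8 was 0.82. Relative to the air mean of each gene, the median of the 7 was −0.07, 0.04 and 0.03 over the air libraries and 0.30, 0.89 and 0.44 over the hyperoxia libraries. All 3 hyperoxia libraries thus stood above the air libraries, library 2 the most. The median range over the air libraries was 0.19 for the members and 0.19 for all genes tested, while over the hyperoxia libraries it was 0.996 for the members and 0.32 for all genes tested. Hyperoxia library 2 exceeded the mean of the other two hyperoxia libraries by a median of 0.47 for the members and 0.01 for all genes tested. By the gap between hyperoxia library 2 and the highest other library, Shox2 ranked 2 of the 17778 genes, Tcf7l2 56, Ramp3 383 and Lef1 561. Shox2 entered this ranking only through its hyperoxia values, so its rank describes those values and supports nothing. Hyperoxia library 2 also had the fewest reads on genes of the 6 libraries, and the part of depth in these gaps was not tested.

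**Figure D2:**
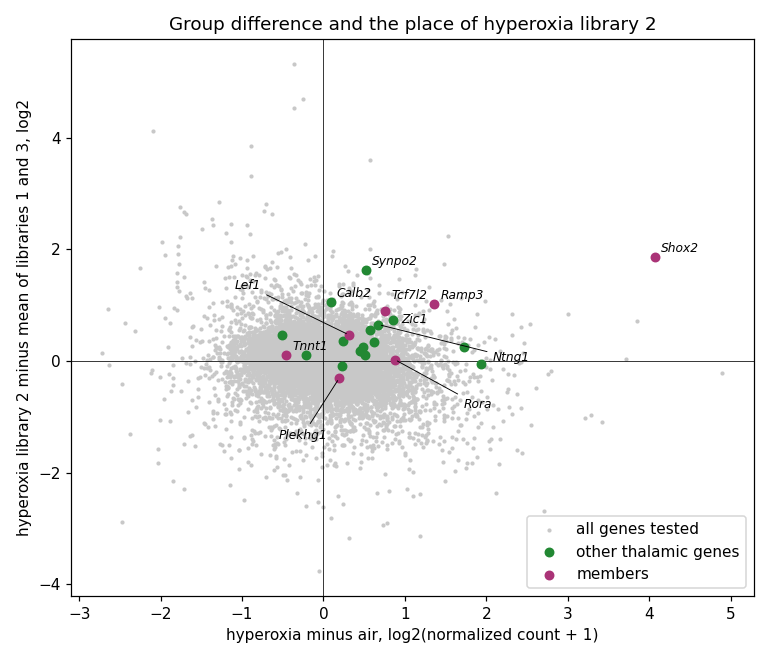
Each point is a gene, placed by its difference between groups (horizontal axis, log2 of the normalized count plus 1, hyperoxia minus air) and by the difference between hyperoxia library 2 and the mean of hyperoxia libraries 1 and 3 (vertical axis, log2), with all 17778 genes tested in grey, the members in purple and other thalamic genes in green. Shox2, Ramp3 and Tcf7l2 lie to the upper right, Rora lies to the right at about 0 on the vertical axis, and Plekhg1 and Tnnt1 lie close to the origin.

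A further 17 genes of the thalamus that the choice of members did not use were examined in the same libraries, and 16 of them were tested (Slc6a4, the serotonin transporter of developing sensory relay neurons, was too low). This list too was set with earlier results of these data known, so its counts are no independent check of the members. The test was limma on the log2 values, with adjusted p-values over all genes tested. Of the 16 genes, 10 rose in hyperoxia and 0 fell, which is 62.5% higher where 14.9% of all genes tested were higher, 15.6% lower and 30.5% changed in either direction. At an unadjusted p under 0.05, limma and edgeR found 1 that fell, and DESeq2 called 1 as lower. The median difference of the 16 was 0.49. The summed normalized counts of all 17 ran from 15609.9 to 16506 in air and from 19824 to 24230.4 in hyperoxia, with the highest sum in hyperoxia library 2. Abundant genes weigh most in such a sum. Calb2, which was not called, alone held 1759, 3720.3 and 1814 in hyperoxia libraries 1, 2 and 3. No gene of the list was at 0, as all 17 had reads in every air library.

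Slc17a6, which encodes the vesicular glutamate transporter VGLUT2 of thalamic relay neurons, rose from an air mean of 593 ± 37.7 (SD, n = 3) to a hyperoxia mean of 1966 ± 263 (SD, n = 3), a difference of 1.72 (limma adjusted p = 1.2e-04). Its libraries had 630, 555 and 593 in air and 2037, 2186 and 1675 in hyperoxia, so all hyperoxia libraries were far above air and library 2 only just the highest. Foxp2, a forkhead factor of thalamic neurons and of deep cortical layers, rose from 39.1 ± 10.6 (SD, n = 3) to 149.5 ± 20.9 (SD, n = 3), by 1.93 (limma adjusted p = 5.9e-04). Foxp2 had its highest value, 172, in hyperoxia library 1, against 145 in library 2 and 131 in library 3. As for Rora, library 2 was near the mean of the other two, at 1.18 times for Slc17a6 and 0.955 times for Foxp2.

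Zic1, a zinc finger factor of the dorsal midline and of thalamic and septal neurons, had an excess in library 2. It had 498, 432 and 485 in air and 688, 1200.1 and 753 in hyperoxia, with library 2 at 1.67 times the mean of the other two, and it rose by 0.86 (limma adjusted p = 0.0075). Ntng1, which encodes netrin-G1 on thalamocortical axons, had 723, 537 and 714 in air and 1097, 1408 and 732 in hyperoxia, and rose by 0.68 (limma adjusted p = 0.038). As in Ramp3, its hyperoxia library 3 was close to the top of the air libraries. Its call was lost when air library 1 (0.079), 2 (0.15) or 3 (0.069) or hyperoxia library 1 (0.11) was left out.

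The other 6 that rose did so by less. Amotl1, an angiomotin-like junction protein, rose by 0.62 (limma adjusted p = 0.0029), from 750 ± 6.61 to 1161 ± 173 (SD, n = 3). Cacna1g, the T-type calcium channel behind burst firing of relay neurons, rose by 0.51 (0.002), from 2986 ± 232 to 4238 ± 204 (SD, n = 3). Zfhx3 rose by 0.48 (0.012), Plcb4, the phospholipase C form of thalamic neurons, by 0.46 (0.0061), Zic4 by 0.45 (0.03) and the RNA-editing enzyme gene Adarb1 by 0.22 (0.032). Slc17a6, Foxp2, Zic1, Amotl1 and Cacna1g were called under all 16 alternatives, Plcb4 under 15, Zfhx3 under 14, Zic4 under 12, Ntng1 under 10 and Adarb1 under 9. Zfhx3 was not called without air library 2 (0.056). Leaving out air library 1 (0.10), air library 3 (0.10) or hyperoxia library 1 (0.065) ended the call of Zic4. The correction for transcript length and GC content ended the calls of Ntng1 (0.11), Zfhx3 (0.34), Plcb4 (0.076) and Adarb1 (0.16). For Adarb1 the same held of air libraries 1 (0.12), 2 (0.13) and 3 (0.061) and of hyperoxia libraries 1 (0.11) and 3 (0.06).

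The 6 thalamic genes that did not pass were not alike. Calb2, which encodes calretinin, a calcium-binding protein of midline thalamic neurons and of interneurons, had 2286, 2383 and 1806 in air and 1759, 3720.3 and 1814 in hyperoxia. Library 2 was 2.08 times the mean of the other two, which lay close to the lowest air value, and the difference was 0.09 (limma adjusted p = 0.81). Synpo2, an actin-binding protein named here after its values were seen, had 166, 180.1 and 192 in air and 179, 548 and 172 in hyperoxia. Its libraries 1 and 3 lay within air and its library 2 ranked 4 of the 17778 genes by its gap, with a difference of 0.52 (limma adjusted p = 0.31).

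Prkcd, the protein kinase C delta of relay nuclei, had a difference of −0.21 (limma adjusted p = 0.37), with 1585, 1388 and 1292 in air and 918, 1292 and 1552 in hyperoxia. Lhx9, a LIM homeobox factor of the early thalamus that was also named after its values were seen, had 770.4, 764 and 725 in air and 373, 654 and 603 in hyperoxia. Every hyperoxia library of Lhx9 lay below air, with a difference of −0.51 (limma adjusted p = 0.058), and it was called lower without hyperoxia library 2 (0.0067) or 3 (0.036). Vipr2 and Rgs16 were not called.

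**Figure D3:**
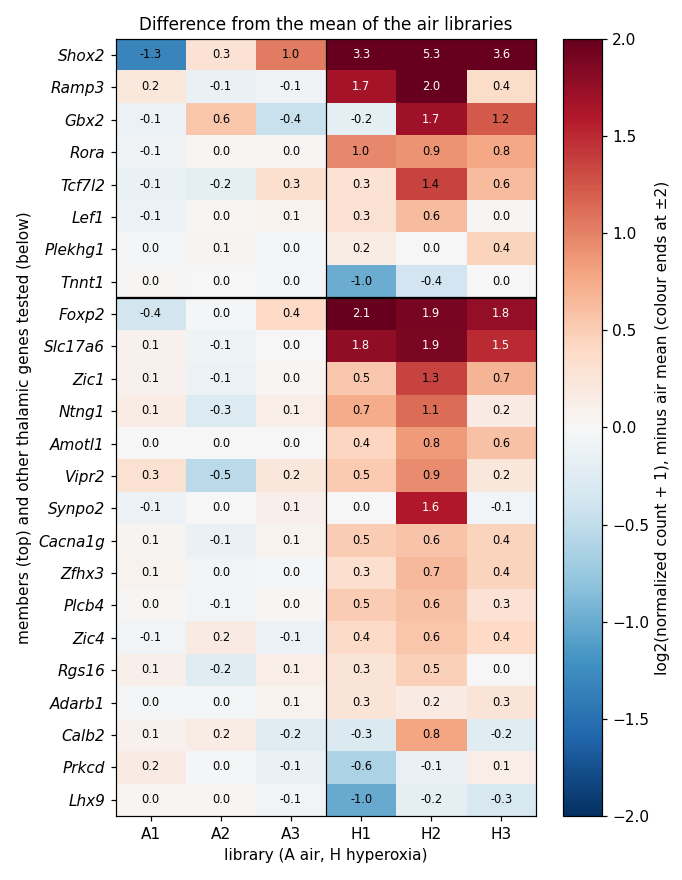
Difference of each library from the mean of the air libraries on the log2 scale (numbers and colour, which ends at 2 in either direction) for the 8 members (above the line) and the 16 other thalamic genes tested (below), with air libraries A1 to A3 and hyperoxia libraries H1 to H3 in columns. Rora, Foxp2 and Slc17a6 are raised alike in the 3 hyperoxia libraries, while Synpo2 and Calb2 are raised in H2 and not in H1 or H3.

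Of the 16 other thalamic genes tested, 12 had their highest value in hyperoxia library 2, beside 19.6% of all genes tested, and 8 of these were among the 10 that rose. Library 2 exceeded the mean of the other two hyperoxia libraries by a median of 0.30 over the 16. Without hyperoxia library 2 the count of genes that rose was 10, as with it. With each of the other libraries left out it was between 7 and 9.

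Relatives and partners of the members were followed next. Of 19 such genes 16 were tested, 3 rose and 3 fell, close to the 14.9% higher and 15.6% lower over all genes tested, and the median difference was 0.07. In the Wnt branch, Ctnnb1, the gene of β-catenin, rose from 10186 ± 75.3 to 13506 ± 1154 (SD, n = 3), by 0.40 (limma adjusted p = 0.0049). The other TCF genes, Tcf7 and Tcf7l1, had differences of 0.10 (0.64) and 0.10 (0.61).

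Rorb, the nuclear receptor closest to Rora and a marker of cortical layer 4, rose by 0.50 (limma adjusted p = 0.0054), from 779.6 ± 68.6 to 1105 ± 107 (SD, n = 3). After the correction for transcript length and GC content its difference was 0.16 and it was not called (0.44). Calcrl, the receptor that Ramp3 joins, rose by 0.82 (limma adjusted p = 0.0012), from 172 ± 11.6 to 305 ± 23.0 (SD, n = 3). The other accessory proteins of that receptor differed by 0.12 (0.46) for Ramp1 and −0.20 (0.28) for Ramp2, which was called lower without hyperoxia library 2 (0.0053).

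In the troponin family, Tnni1, the slow muscle troponin I, fell by 0.70 (limma adjusted p = 0.013), from 179.9 ± 30.3 to 110.2 ± 15.2 (SD, n = 3), and it was not called without air library 2 (0.063), air library 3 (0.058) or hyperoxia library 1 (0.052). Of the Plekhg family, Plekhg5 fell by 0.69 (limma adjusted p = 5.1e-04) and Plekhg3 by 0.61 (limma adjusted p = 0.008), whereas Plekhg2 and Plekhg4 were not called. Tcf7, Tcf7l1, Calcrl, Ramp2, Tnni1, Plekhg2, Plekhg3 and Plekhg4 were named after their values were seen.

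Feedback targets of Wnt signalling, genes that TCF/LEF factors and β-catenin switch on in many tissues, came next. Of 8 tested, 2 rose and 1 fell, beside 14.9% higher and 15.6% lower over all genes tested, and the median difference was 0.32. Apcdd1, a membrane inhibitor of Wnt, rose by 0.38 (limma adjusted p = 0.0055), and Znrf3, a ligase that clears Frizzled receptors, by 0.39 (limma adjusted p = 0.018). Notum, a secreted enzyme that inactivates Wnt and was named after its values were seen, fell by 0.71 (limma adjusted p = 0.016). Axin2, a target in most tissues, had 968, 880.2 and 909 in air and 857, 769.9 and 748 in hyperoxia, a difference of −0.22 (limma adjusted p = 0.081), and Nkd1 one of 0.27 (limma adjusted p = 0.14). After the correction for transcript length and GC content Apcdd1 differed by 0.086 and was not called (0.62). Znrf3 was not called without air library 1 (0.082) or 2 (0.055), and Notum was not called without air library 1 (0.079) or hyperoxia library 1 (0.055).

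The rest of the lists covered tissues that adjoin the hippocampus. The habenula, which lies at the dorsal edge of the thalamus and shares Tcf7l2 with it, had summed normalized counts of 2672, 1995 and 2361 in hyperoxia libraries 1, 2 and 3. Nwd2 alone held 2280, 1577 and 1908 of these, so their order was largely that of 1 abundant gene. Of 7 habenular genes tested, 1 rose and 1 fell, close to the 14.9% higher and 15.6% lower over all genes tested. Of these 7, 0 had their highest value in library 2, where 19.6% of all genes tested did, and their median difference was 0.19. Nwd2 rose by 0.46 (limma adjusted p = 0.021) and Tac2, a neurokinin gene, fell by 0.47 (limma adjusted p = 0.047). Nwd2 was not called without air library 1 (0.059), 2 (0.093) or 3 (0.056) or hyperoxia library 1 (0.071). Tac2 was not called without air library 1 (0.11), 2 (0.17) or 3 (0.079) or hyperoxia library 1 (0.16) or 3 (0.08). The length and GC correction ended both calls (0.11 and 0.092), and that of Tac2 was also lost with no filter (0.052). Chrna3, a nicotinic receptor subunit, differed by −0.056 (0.82). Gpr151, an orphan receptor largely restricted to the habenula, had 25.4, 44.8 and 26.7 in air and 26.5, 20.4 and 34.7 in hyperoxia, lowest in library 2.

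Genes of the choroid plexus, which lies between hippocampus and thalamus, were highest in another library. Of 11 such genes tested, 9 had their highest value in hyperoxia library 3, where 22.4% of all genes tested did, and 0 in library 2. Their summed normalized count was 924, 805 and 1692 over the air libraries and 979, 723 and 8614 over the hyperoxia libraries. Ttr, the plexus transthyretin gene, had 272, 167 and 887 in air and 350.0, 183 and 7454 in hyperoxia. Library 2, where 5 of the 8 members were highest, thus held the lowest plexus sum of the 6 libraries, and library 3 the highest. Of the 8614 in library 3, Ttr alone held 7454, so the height of that sum was largely Ttr. A link between the plexus sums and the members was not tested. Of the plexus genes 2 rose in limma and edgeR, Prlr and Aqp1 (the latter named after its values were seen), and 3 in DESeq2. By all 3 tools 0 fell, also at an unadjusted p under 0.05. Over all genes tested limma called 14.9% higher and 15.6% lower. Sostdc1 and Kl differed by −0.14 (0.47) and −0.30 (0.23). Under the length and GC correction Prlr was not called (0.084) and Kl was called lower (0.032). With air library 2 or hyperoxia library 1 left out, 1 rose, and without hyperoxia library 3, 1 fell.

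Neocortical genes were highest most often in hyperoxia library 1, in 4 of 8, where 13.6% of all genes tested were. Their summed normalized count ran from 8742 to 9984 in air and was 14357, 11297 and 10701 in hyperoxia libraries 1, 2 and 3. Cux2, an upper-layer factor, had 1168, 1113 and 1154 in air and 2773, 2196 and 1901 in hyperoxia, and rose by 0.98 (limma adjusted p = 9.2e-04). Tle4, a corepressor of deep layers, rose by 0.49 (limma adjusted p = 0.004). The deep-layer factors Fezf2 and Tbr1 differed by −0.21 (0.16) and −0.0077 (0.97). Of the 8 neocortical genes 4 rose and 1 fell, with a median difference of 0.34, and Rorb counts in this list too. Of 9 striatal genes 4 rose and 1 fell, with a median of 0.51, and the 3 hyperoxia libraries were the highest in 3, 3 and 2 of them. Both lists stand beside 14.9% higher and 15.6% lower over all genes tested. Rgs9, a regulator of G protein signalling, rose by 0.51 (limma adjusted p = 0.004). Ppp1r1b, the gene of DARPP-32, fell by 0.39 (limma adjusted p = 0.0087) and was not called under the length and GC correction (0.091). Pde10a differed by 0.19 (0.31), and was called higher without hyperoxia library 2 (0.011).

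Genes of hippocampal neurons were abundant in every library. The 14 genes of hippocampal neurons had summed normalized counts of 67355 to 72088 in air and of 48148, 43169 and 62212 in hyperoxia libraries 1, 2 and 3, lowest in the library in which most thalamic genes were highest. Of the 14 genes 8 fell in limma, which called 15.6% of all genes tested lower and 14.9% higher, and 7 fell in edgeR and in DESeq2. By all of these tools 0 rose, also at an unadjusted p under 0.05. Their median difference was −0.56. Neurod6, a factor of pyramidal neurons, fell by 0.75 (limma adjusted p = 0.0014), whereas Prox1, the granule cell factor, differed by −0.42 (limma adjusted p = 0.081). Zbtb20 and Wfs1 differed by −0.26 (0.37) and −0.32 (0.25). Without hyperoxia library 3, Prox1 (3.7e-04) and Zbtb20 (0.0019) were called lower, and without hyperoxia library 1, Wfs1 (0.028). Under the length and GC correction Prox1 (0.0019) and Zbtb20 (0.0043) were called lower too. Without air library 1 the count of genes that fell was 4, and without air library 2 it was 5. The part of this fall in the thalamic values was not tested.

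Cell types that share a member were set beside it. Of 9 endothelial genes, the cells in which Lef1 is also active, 5 rose and 2 fell, beside 14.9% higher and 15.6% lower over all genes tested. The median of the 9 was 0.37 and 5 were highest in hyperoxia library 2, where 19.6% of all genes tested were. Cldn5, a tight junction protein, rose by 0.57 (limma adjusted p = 0.003) and Kdr, a receptor of VEGF, by 0.61 (limma adjusted p = 0.0016), while Slco1a4, an organic anion transporter of brain endothelium, fell by 0.36 (limma adjusted p = 0.0081), a call lost without air library 2 (0.051). Flt1, another VEGF receptor, differed by 0.19 (0.14). Their summed count was 9580.4 to 9828 in air and 10577, 12003 and 10992 in hyperoxia libraries 1, 2 and 3. Without air library 2 or hyperoxia library 1, 3 rose, and without air library 2, 1 fell.

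Of 9 oligodendrocyte genes, the lineage that also uses Tcf7l2, 8 fell and 0 rose, where limma called 15.6% of all genes tested lower and 14.9% higher. These counts were alike in limma, edgeR and DESeq2, with 0 of the 9 higher at an unadjusted p under 0.05. The median was −0.72, opposite in sign to the difference of Tcf7l2. Mbp, myelin basic protein, fell by 0.73 (limma adjusted p = 0.01) and Mobp by 1.09 (limma adjusted p = 0.0019), and 5 fell without air library 2. Cnp differed by −0.30 (0.12). Mbp was not called without air library 2 (0.053) or after quantile normalization (0.065). Cnp was called lower without air library 1 (0.03) or hyperoxia library 2 (0.036). The part of endothelial or oligodendrocyte RNA in the values of Lef1 and Tcf7l2 was not tested.

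**Figure D4:**
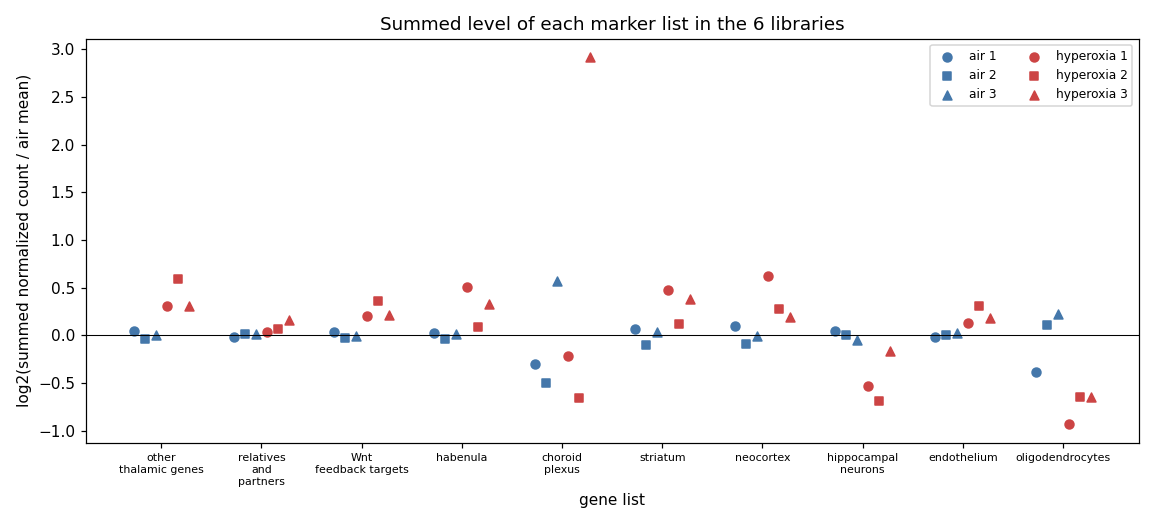
Summed normalized count of each gene list in each library, as log2 of its ratio to the mean of the 3 air libraries (vertical axis), for air libraries (blue) and hyperoxia libraries (red), with circles, squares and triangles for libraries 1, 2 and 3. Hyperoxia library 2 is the highest for the other thalamic genes, the Wnt feedback targets and the endothelium, library 1 for the habenula, striatum and neocortex, and library 3 for the choroid plexus, at a summed count of 8614. The habenular sum is mostly Nwd2, and the plexus sum of hyperoxia library 3 is mostly Ttr.

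The 10 genes whose profile over the 6 libraries came closest to the mean profile of the 7 tested members were sought among 14094 genes with a mean of at least 50, by the root mean square distance of their centred log2 values, which had a median of 0.575 over these genes. They were Gja4 (0.137), Mum1l1 (0.141), Lhfpl3 (0.143), Rims3 (0.152), Maff (0.153), AW551984 (0.155), Enkur (0.156), Slitrk6 (0.167), Fancf (0.171) and Zic1 (0.174). Gja4, the arterial connexin 37 gene, had 141, 138 and 149.9 in air and 212, 341 and 228 in hyperoxia. Slitrk6, a membrane protein known from the dorsal thalamus and the inner ear, had 33.0, 36.6 and 42.1 in air and 49.5, 98.5 and 54.1 in hyperoxia. All 10 were highest in hyperoxia library 2, as the mean profile was, and 1 of them, Zic1, is in the list of other thalamic genes. Shox2, with centred values from −3.35 to 3.28, weighed most in this mean. Without it the 10 nearest genes shared 0 with those above and included 0 of the other thalamic genes, so the names rest on Shox2. The nearest were then Mapkapk2 (0.0316), Sfrp2 (0.0356) and the endothelial gene Cldn5 (0.0368). All 10 were highest in hyperoxia library 2, as the profile searched for was. In both searches this follows from the choice of near profiles and is no separate result.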

How the data were processed

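RNA from the left hippocampus was sequenced from strand-specific libraries. The submitters' processing notes name FastQC, STAR 2.5.3a, HTSeq and DESeq2, with no role or order. Neither the genome build nor the use of strand in counting is stated in those sources. The deposited signal is the read count of a gene, divided by the authors by the size factor of its library. A second deposited table, of the authors' own comparison, was not used. Whole reads were recovered, with 100% of values within 0.01 of a whole number.

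Genes with a mean of at least 10 were tested in limma 3.58.1 (R 4.3.3), as log2 of the value plus 1, with a trended variance prior, and called at a Benjamini-Hochberg adjusted p under 0.05. Differences are hyperoxia minus air, with groups as the column names give them. The procedure was tested on simulated counts with the same variability for every gene and no outlying library. That test does not cover data in which single libraries stand apart. The 16 alternatives comprised edgeR 4.0.16 (quasi-likelihood) and DESeq2 1.42.0 on the recovered reads, quantile or TMM scaling, no trend in limma, a pseudocount of 0.5 or 5, a minimum mean of 50 or none, a length and GC correction (mgcv 1.9.3) and each library left out in turn. The mean profile and the median of the members were also taken without Shox2, chosen after seeing the data. Positions, overlaps and exon lengths came from GENCODE M21 (GRCm38), which held 99.7% of the identifiers.

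The members and the 10 gene lists were chosen with earlier results of these data known. Named were the members, the 4 most abundant genes of each list, every other thalamic gene called and the 10 nearest profiles, plus those marked as named after their values were seen. The p-values measure the spread between the mice, whose sex and litter are not labelled. Of the genes that this rule names, 2 are not reported here.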

Additional observations from a re-analysis of the deposited data

How the results depend on the processing

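With 1 library left out, the number of genes called over all genes ran from 3048 to 7756, beside 5425 with all 6. It was 3048 without air library 1, 3087 without air library 2 and 3378 without hyperoxia library 1. Under the length and GC correction, 6 of the other thalamic genes rose in place of 10 and 1 fell in place of 0, and the difference of Plekhg1 turned to −0.026. DESeq2 called 1 other thalamic gene lower, Lhx9, and with 1 library left out that count was between 0 and 1. The cause was not tested. The median difference of the members lay between 0.46 (without hyperoxia library 2) and 0.89 and was positive under all 16 alternatives. That of Shox2 lay between 2.77 and 4.65. edgeR called 5501 genes and DESeq2 5611. No paired analysis was possible because the column numbers are not numbers of animals. Shox2 and Gbx2 rested on 6 and 10 reads in air, so their levels there were near the limit of detection, and with 3 libraries per group single outlying libraries could not be tested for.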

Other observations

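The genes in which hyperoxia library 2 stood furthest above every other library were looked up after their values were seen, and have no test. Shox2 and Synpo2 were among the first 10, at ranks 2 and 4, and the rest were outside the lists examined. Shox2 was ranked only because its hyperoxia values let it pass the filter. Several of the rest had low counts in the libraries other than hyperoxia library 2. Rank 1 was Vgll3, a cofactor of TEAD transcription factors, with 24.5, 17.3 and 19.5 in air and 45.1, 171 and 28.0 in hyperoxia (libraries 1 to 3 in order). Irs4, an insulin receptor substrate, at rank 5, had 13.2, 11.2 and 7.19 in air and 16.8, 48.7 and 15.4 in hyperoxia. Cacna1s, a calcium channel known from skeletal muscle, at rank 7, had 7.53, 5.09 and 7.19 in air and 7.96, 27.2 and 10.6 in hyperoxia.

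The lists of adjoining tissues did not all peak in the same hyperoxia library, and some had no clear peak. Neocortical genes were most often highest in library 1 (4 of 8), other thalamic genes in library 2 (12 of 16) and plexus genes in library 3 (9 of 11), beside 13.6%, 19.6% and 22.4% of all genes tested. Of 9 striatal genes, 3, 3 and 2 were highest in libraries 1, 2 and 3. Of 7 habenular genes, 3, 0 and 1 were, and 3 were highest in an air library. Among the genes raised in all 3 hyperoxia libraries, Rora, Slc17a6 and Foxp2 had ratios of library 2 to the mean of the other two of 1.02, 1.18 and 0.955. Shox2, Ramp3 and Zic1, also above every air library in all 3, had ratios of 3.72, 1.85 and 1.67. In the remaining thalamic genes that rose, the ratio ran from 0.94 (Adarb1) through 1.08 (Cacna1g) and 1.27 (Amotl1) to 1.54 (Ntng1), so these are not separate classes.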
